A study of Mus musculus with 4 samples.

Results

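Mature oligodendrocytes (OLGs) without *Klk6* were the myelin-making cells of the mouse hippocampus that carried myelin genes, hardly any *Klk6* and at most 1 molecule of the response genes *C4b* and *Serpina3n*. They were selected on measured counts. A barcode with at least 650 detected genes was a member if it held, per 10000 unique molecular identifiers (UMIs, each counting 1 captured RNA molecule), at least 12 of *Mog*, *Mag* and *Ermn* together, under 4 of *Klk6*, under 8 of *Gpr17*, *Bmp4* and *Neu4*, under 40 of *Cldn5*, *Flt1* and *Ly6c1*, and under 40 of *C1qa*, *C1qb* and *C1qc*. The cell also had to hold fewer than 2 UMIs of *C4b* and *Serpina3n*. Of 14147 barcodes kept, 3163 were members: 1497 in sham 1, 1035 in sham 2 and 631 in 2VO 1. The 15 genes of this rule are given below only as a description, and none was counted among the called genes. Some marker lists below include genes of the rule, as is stated there.

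Mature OLGs wrap axons in compact myelin, a stack of membrane held together by proteins such as *Mbp* and rich in cholesterol and sphingolipids, which the cell makes itself. They also pass energy substrates to the axon and store iron, which their lipid enzymes use. Single-cell atlases of the mouse brain split them into several mature states, of which one is rich in *Klk6* and another in *Ptgds*, the synthase of prostaglandin D2. *C4b*, a complement component, and *Serpina3n*, a protease inhibitor, are raised in OLGs in mouse models of injury and disease.

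Single-cell RNA was measured in hippocampi of C57BL/6 mice given as 12 weeks old in the labels, on the seventh day after two-vessel occlusion (2VO), in which both common carotid arteries are clamped for a time, or after sham surgery. The occlusion lowers blood flow to the whole forebrain, and all mice went through surgery, dissociation with pronase and a density gradient. Of the 2 sham and 2 2VO mice in the labels, with 1 library each, the libraries sham 1, sham 2 and 2VO 1 were used, while 2VO 2 was not analysed here. With 1 2VO library, the mouse, the library and the treatment cannot be told apart. Values are given in the order sham 1, sham 2, 2VO 1 throughout.

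The 2VO 1 library stood apart in depth. The median member held 11585, 7966 and 2147 UMIs and 3422, 2753 and 1163 genes, and the members' counts summed to 21281316, 9191741 and 1707457 UMIs. In the median member 2.10%, 2.75% and 6.53% of UMIs came from mitochondrially encoded genes. No member shared its barcode with a cell of another library (0 of 3163), although 52 kept barcodes did. Scrublet, which scores cells against simulated mixtures, marked 45, 39 and 4 members as doublets, and they were kept. Shares of cells holding a gene were therefore also taken after thinning each cell to 1000 UMIs at random, and the shares below are thinned unless stated.

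The members carried the markers of their name. *Opalin*, a membrane protein of mature OLGs that the rule did not use, was found in 64.1%, 73.0% and 42.3% of members. In endothelial barcodes of the same libraries (the vessel lining), which should lack it, the share was 0.59%, 0.69% and 3.12%. These barcodes passed the endothelial limit and held little of *Mog*, *Mag* and *Ermn*. They also met the members' limit on *C1qa*, *C1qb* and *C1qc*. *Ptgds* was found in 83.1%, 89.7% and 90.5% of members and in 8.20%, 10.5% and 39.0% of endothelial barcodes. *Il33*, an alarmin kept in the nucleus, was found in 20.9%, 53% and 37.5% of members against 0.20%, 0.46% and 4.22% of endothelial barcodes. For these 3 markers the share in members was above that in endothelial barcodes in every library, with the highest endothelial shares in 2VO 1.

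Among the genes of the rule, the sum of *Mog*, *Mag* and *Ermn* had a median of 88.2, 69.8 and 61.7 per 10000 UMIs. Its lowest twentieth lay at or under 56.1, 46.0 and 19.0, so that the lower tail in 2VO 1 came closest to the limit. The members nearest the limits held 12.4 of this sum against 12.0 in the nearest barcode outside, and 3.99 of *Klk6* against 4.04. One UMI of *C4b* or *Serpina3n* was allowed and was found in 8.28%, 9.18% and 21.6% of members at full depth.

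Members made up 29.3% (95% exact interval 28.1% to 30.6%), 20.2% (19.1% to 21.3%) and 16.1% (15.0% to 17.3%) of the kept barcodes. The 2VO library was below both sham libraries, which themselves differed by more than that between sham 2 and 2VO 1. With no limit on *C4b* and *Serpina3n* the shares were 30.9%, 21.2% and 22.8%, so that 2VO 1 then lay between the sham libraries. Intervals are Clopper-Pearson intervals and cover counting error only. All mature OLGs together, with *Klk6* or *C4b* or not, were 31.6%, 21.7% and 24.0% of kept barcodes, so that the 2VO value of the whole group lay between the sham values. With 2 libraries against 1, the 3 possible splits cannot give a permutation p below 0.333, and no test of shares is given.

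Within mature OLGs, members were 92.6%, 93.0% and 67.3% in the 3 libraries. OLGs with at least 4 *Klk6* UMIs per 10000 (*Klk6* OLGs, 35, 28 and 44 cells) were 2.17%, 2.52% and 4.70%. OLGs without *Klk6* but with at least 2 UMIs of *C4b* or *Serpina3n* (84, 50 and 262 cells) were 5.20%, 4.49% and 28.0%. The members' smaller share in 2VO 1 thus stood beside a larger share of the *C4b* or *Serpina3n* OLGs, which the limit of 2 UMIs separates from them. Of OLGs without *Klk6*, 0.19%, 0.369% and 14.3% still held 2 such UMIs after thinning to 1000, and the 2VO value was again the highest. Both genes belong to the rule, so these shares only describe how the rule divided the cells.

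**Figure D1:**
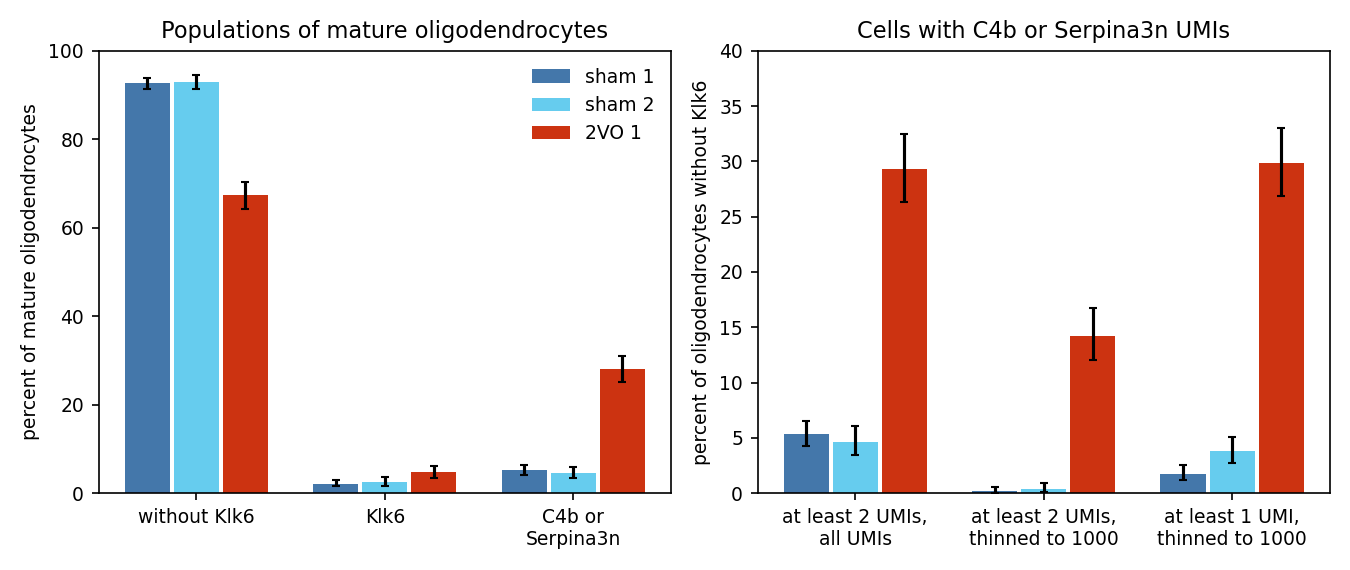
Left, percent of mature OLGs (vertical axis) in the members, the *Klk6* OLGs and the *C4b* or *Serpina3n* OLGs of sham 1, sham 2 and 2VO 1, with 95% exact intervals for counting error. Right, percent of OLGs without *Klk6* that held at least 2 UMIs of *C4b* or *Serpina3n*, at full depth and thinned to 1000 UMIs per cell. The members' bars stand at 92.6%, 93.0% and 67.3%, and the *C4b* or *Serpina3n* share was highest in 2VO 1 at either depth.

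Members differed widely among themselves in *Ptgds*. After thinning to 2000 UMIs, which kept 1469, 1005 and 348 members, the median member held 19, 36 and 25 *Ptgds* UMIs. The 10th percentile of members was 0, 1 and 2 UMIs and the 90th percentile 74, 107 and 72.6. The variance of *Ptgds* was 38.5, 40.7 and 27.9 times its mean, where pure counting noise gives a ratio of 1, and this ratio grows with the mean. Relative to the mean *Ptgds* spread less than *Fos*, an immediate early gene, with an SD of 1.15, 0.94 and 0.93 times the mean against 2.35, 1.62 and 1.32. *Fos* had a mean of only 1.19, 3.35 and 4.01 UMIs against 29.3, 46.1 and 32.3, at which counting noise weighs more. *Car2*, a carbonic anhydrase of OLGs, had a median of 6, 7 and 5 UMIs and a ratio of 2.65, 1.90 and 2.51. *Car2* was at 0 in 6.94%, 2.59% and 5.17% of thinned members and *Ptgds* in 11.9%, 7.86% and 4.89%. The spread of *Ptgds* was wide in each of the 3 libraries and no library held a *Ptgds*-free population alone.

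**Figure D2:**
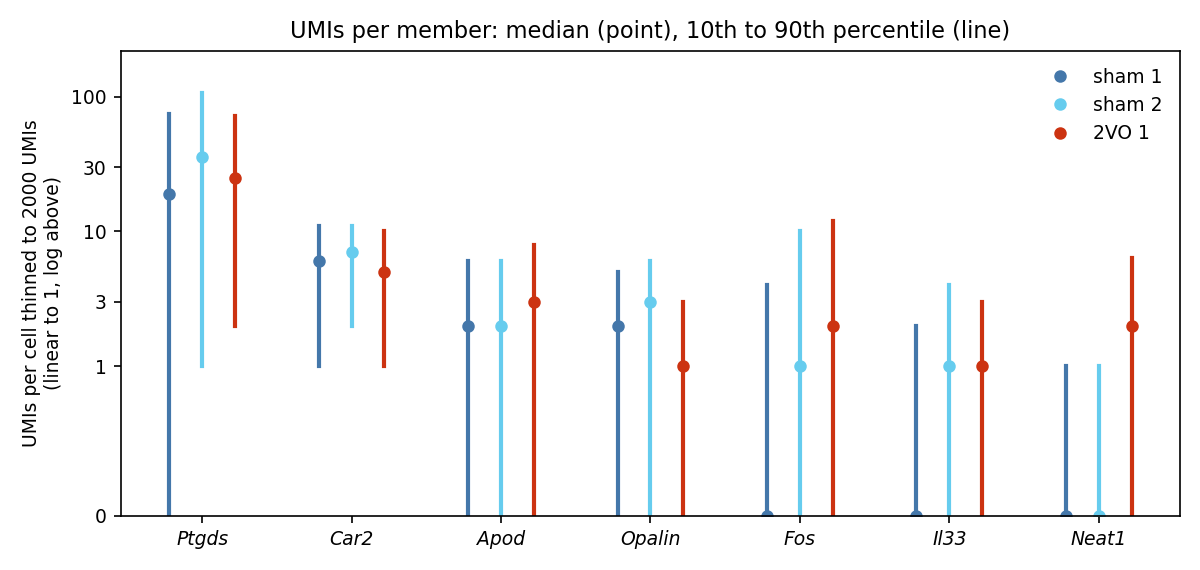
UMIs per member after thinning to 2000 UMIs (vertical axis, linear near 0 and logarithmic above) for 7 genes in sham 1, sham 2 and 2VO 1. Points are medians and lines run from the 10th to the 90th percentile of cells, so they show the spread among members and not an error. *Ptgds* spans from 0 to 2 UMIs up to 72.6 to 107, a wider span than that of *Car2*.

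The genes whose counts went with *Ptgds* over members were named by their Pearson r nearest 0 of the 3 libraries, over 2408 genes. *Apoe*, a lipid carrier, had r of 0.42, 0.47 and 0.49, followed by the tetraspanin *Cd9* (0.36, 0.49 and 0.35) and *Il33* (0.34, 0.36 and 0.35). *Opalin* (0.33, 0.44 and 0.31) and the creatine kinase *Ckb* (0.39, 0.40 and 0.31) came next. On the other side stood *S100b*, a calcium-binding protein (−0.42, −0.56 and −0.44), the selenium carrier *Selenop* (−0.36, −0.50 and −0.37) and *Enpp6*, a choline phosphodiesterase (−0.44, −0.48 and −0.35). *Anln* (−0.23, −0.41 and −0.28) and *Plin3* (−0.19, −0.29 and −0.21) completed the 5 lowest. Only genes with the same sign in each library could be named, so the shared sign of these 10 genes is no separate result. Cells of a library share its depth and its free RNA, so these values describe the cells and no p is given.

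A small set of deeply covered cells stood out among the members and was described after its values had been seen. They held *9630013A20Rik*, a noncoding RNA that the GENCODE annotation of GRCm38 lists as antisense (ENSMUSG00000115529, chr14:84458639-84476424, minus strand), and whether the counting used strand is not given in the sources used here. They numbered 141, 19 and 18 members, or 9.42%, 1.84% and 2.85%, and their median depth was 27293, 29280 and 2945.5 UMIs against 11284.5, 7939 and 2133 in the other members. Since a deeper cell is more likely to show a UMI, the part of depth in this choice was not tested, and per-UMI values are given.

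These cells carried more of several genes that mark OLGs which have only recently formed, and less *Ptgds* and *Trf*. *Tcf7l2*, a transcription factor of newly formed OLGs in the mouse and a marker of that stage in the list used here, stood at 3.26 per 10000 UMIs in them and 0.201 in the other members of sham 1, at 1.84 and 0.291 in sham 2, and at 2.53 and 0.539 in 2VO 1. *Itpr2*, a calcium release channel on the same list, stood at 1.97 and 0.0822, 0.90 and 0.117, and 2.00 and 0.447. *Enpp6*, also on it, stood at 4.08 and 1.14, 2.04 and 1.20, and 2.00 and 0.925. *Bcas1* differed in direction, with 3.52 and 2.94, 3.16 and 3.38, and 4.79 and 2.97, and *Casr* had only 59, 2 and 2 UMIs in all members. The other 3 genes of the list belong to the rule. *Ptgds* was lower in them, at 39.5 and 143, 98.8 and 220, and 46.9 and 158. The iron carrier *Trf* followed, at 12.6 and 41.1, 14.9 and 41.2, and 16.8 and 43.4. *Opalin* was not lower, at 13.0 and 12.9, 17.7 and 14.9, and 8.92 and 7.03. Thus *Tcf7l2*, *Itpr2* and *Enpp6* were higher and *Ptgds* and *Trf* lower in the *9630013A20Rik* cells of each library. These cells held 17.6%, 5.44% and 4.40% of all UMIs of the members, but 78.9%, 53.6% and 30% of the *Rims2* UMIs and 82.2%, 36.7% and 16.8% of those of *Lsamp*.

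Single cells set the level of some interferon genes. In sham 1, a single member held 111 of the 126 *Isg15* UMIs, and the highest member held 178 of 212 *Ifit3* UMIs and 75 of 88 *Rsad2* UMIs. In sham 2, 2 of the 19 *9630013A20Rik* members held 38 of 44 *Rsad2* UMIs. *Isg15* and *Rsad2* are antiviral genes switched on by interferon. In 2VO 1 no member held more than 2 *Ifit3* UMIs, of 17 in all.

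The members were then compared with the *Klk6* OLGs of the same libraries, which asks what separates the common mature OLGs from the rare *Klk6* state. The common cells carried more *Ptgds*, *Opalin*, *Il33* and *Cd9*, and the *Klk6* OLGs more *S100b*, *Hopx*, *Apod* and *Selenop*. Counts were summed per library and population and put into the quasi-likelihood test of edgeR with the library as a block, and levels are CPM (counts scaled to 1000000 per library), normalised within each fit. A gene was called when its adjusted p was below 0.05 and its fold above 1.5, and 230 of 8146 genes were higher in members (2.82%) and 240 lower (2.95%). Without *9630013A20Rik* cells, an alternative chosen after seeing the data, the counts were 193 and 228.

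*Ptgds* stood at 13077, 22517 and 14856 CPM in members and at 1328, 696 and 6148 in *Klk6* OLGs (log2 difference 3.15, standard error 0.45, edgeR adjusted p = 0.000446). *Opalin* had 1352, 1594 and 688 CPM in members against 207, 301 and 283 (2.29 ± 0.19 SE). *Il33* had 237, 859 and 539 against 48.8, 61.1 and 267 (2.33 ± 0.30 SE). In each of these 3 genes the members were above the *Klk6* OLGs in all 3 libraries, with the smallest gap in 2VO 1. For *Opalin* this shared direction was a condition for naming the gene. The median *Klk6* OLG held 15, 7 and 2 *Klk6* UMIs, and 20 of the 44 in 2VO 1 entered on 1 UMI, so their part in the smaller gap was not tested.

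*S100b* stood at 145, 183 and 135 CPM in members and at 2219, 1762 and 671 in *Klk6* OLGs (log2 difference −3.30, SE 0.21, edgeR adjusted p = 3.33e-07). *Hopx*, an atypical homeodomain protein, had 20.9, 70.4 and 48.8 against 478, 639 and 202 CPM. *Apod*, a lipid carrier, had 1281, 1422 and 1966 against 3896, 3871 and 5873 CPM, at a log2 difference of −1.54 (SE 0.10). The *Klk6* OLGs were higher in all 3 libraries for each, which was a condition for naming these genes. *Nkx2-9*, a homeodomain factor, had 5.80, 7.13 and 2.84 CPM in members and 246, 155 and 40.4 in *Klk6* OLGs. Of the 5 genes with the lowest r to *Ptgds* over members, all 5 were also higher in *Klk6* OLGs, but both were measured in the same libraries and share the members' counts.

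Among gene lists, compact myelin had 6 of 24 tested genes higher in members and 2 lower (median log2 difference 0.11, all genes 0.00). The axon-glia list had 4 of 16 higher, among them the axon adhesion protein *Nfasc* (1047, 468 and 990 against 244, 216 and 679 CPM) and the neuregulin receptor *Erbb4* (59.7, 43.9 and 70.3 against 12.2, 12.2 and 16.2 CPM). *Hapln2*, a link protein of the node of Ranvier, was lower in members at 235, 401 and 305 against 800, 940 and 679 CPM. *Mbp* differed little, with 5014, 3947 and 3463 against 4415, 3960 and 3215 CPM.

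Compared with the *C4b* or *Serpina3n* OLGs, the members carried less of the antigen genes *H2-D1* and *B2m*, of 5 of 11 interferon genes and of 7 of 21 immediate early genes. Of 8864 genes tested, 57 were higher in members (0.643%) and 44 lower (0.496%). Without *9630013A20Rik* cells 13 were higher and 42 lower, and of the 10 named higher genes only *Ttyh1* kept its call in that setting, in which *9630013A20Rik* itself is absent by construction. Of the *C4b* or *Serpina3n* OLGs only 3, 0 and 2 cells held *9630013A20Rik*.

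*Ifi27l2a*, an interferon-induced gene, stood at 85.7, 86.0 and 15.6 CPM in members and 444, 1641 and 64.3 CPM in the *C4b* or *Serpina3n* OLGs (log2 difference −3.22, SE 0.25, edgeR adjusted p = 1.42e-07). The class I antigen gene *H2-D1* had 96.9, 92.2 and 115 against 235, 409 and 253 CPM (−1.52 ± 0.13 SE), and its light chain *B2m* had 60.2, 49.2 and 87.4 against 144, 211 and 140 CPM (−1.34 ± 0.16 SE). *Bst2*, an antiviral membrane tether, had 27.3, 18.4 and 19.8 against 158, 223 and 27.3 CPM. For these genes members were lower in all 3 libraries, which was a condition for naming them. For *Bst2* the gap was narrowest in 2VO 1.

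*Fos*, an immediate early gene that answers to stimulation and to handling, had 590, 1905 and 1762 CPM in members and 957, 2829 and 2508 in the *C4b* or *Serpina3n* OLGs (−0.59 ± 0.06 SE). Its library effect was larger than that between populations, since sham 1 stood under sham 2 and 2VO 1 in both. Immediate early genes were lower in members for 7 of 21 tested (median −0.56) and higher for 0. The reactive list, which was written around genes of such OLGs, had 6 of 12 lower (median −0.68) and the interferon list 5 of 11 lower (median −1.01). Compact myelin had 2 of 24 higher, *Nfasc* and the deacetylase *Sirt2*, at a median of 0.10. *Ttr*, a gene of the choroid plexus, was also lower in members, at 2016, 1035 and 3745 against 4690, 1389 and 8566 CPM, as were 3 of 4 choroid markers, and the part of free choroid RNA in this comparison was not tested.

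Whether the 2VO difference itself differed between populations was tested as an interaction, in separate fits. Against *Klk6* OLGs, 9 of 10037 genes had a more positive 2VO difference in members (0.0897%) and 34 a more negative one (0.339%). Against *C4b* or *Serpina3n* OLGs these were 9 of 10658 (0.0844%) and 21 (0.197%). *Ptgds* had the difference with the smallest p in the first, at −2.78 on the log2 scale (SE 0.16). In both fits the spread of a gene was taken from all genes together, so this SE is not the spread of *Ptgds* between libraries. With DESeq2 these counts were 0 and 1 in the first and 0 and 0 in the second (91 and 25 genes at an unadjusted p under 0.05), and with edgeR after thinning 0 and 7, and 0 and 1.

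**Figure D3:**
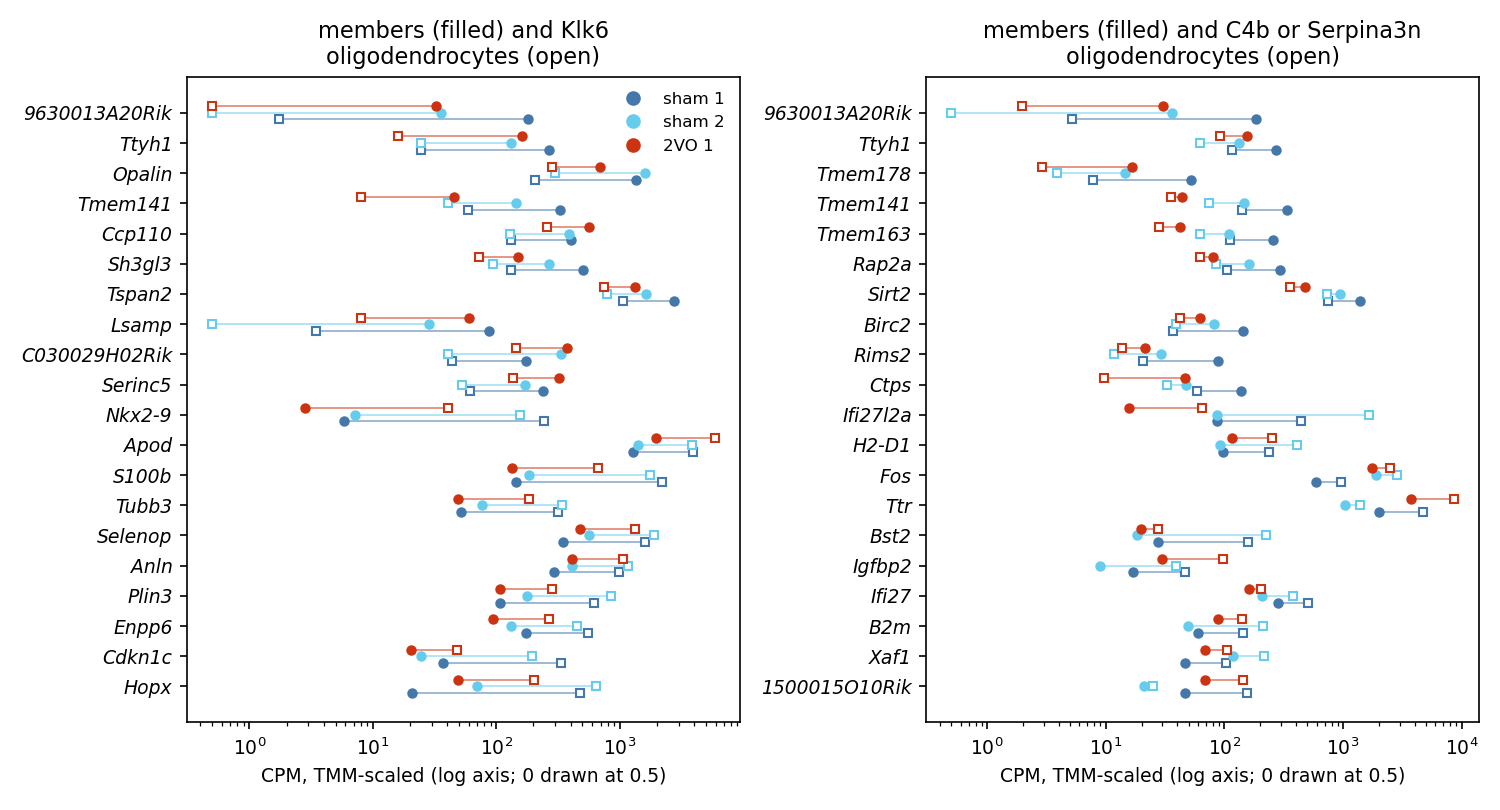
Level in CPM (horizontal axis, logarithmic, with 0 drawn at 0.5) of the genes named in the comparisons of members with *Klk6* OLGs and with *C4b* or *Serpina3n* OLGs, 1 point for each library. A gene was named only if its direction was the same in all 3 libraries. Filled points are members and open points the other population. *Opalin* in members lies between 688 and 1594 CPM against 207 to 301 in *Klk6* OLGs, and *Ifi27l2a* lies lower in members in each library.

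In 2VO against sham, the members of 2VO 1 had lower levels of 4 of 24 compact myelin genes, *Opalin* among them, and of 7 of 11 nuclear cytochrome c oxidase subunits, and higher levels of the noncoding *Gm26917* and *Kcnq1ot1*, of *mt-Nd6* and of *Atf3*. These levels are CPM scaled by TMM, which sets most genes to be equal, and not shares of all counts. The test compared 1 2VO library with 2 sham libraries on the members' summed counts, which leaves 1 residual degree of freedom and takes the spread of the single 2VO library to equal that of the sham mice. Of 12969 genes, 248 (1.91%) were called higher and 782 (6.03%) lower. Before adjustment, p was under 0.05 for 4308. The smallest adjusted p shared by many genes was 0.0485, close to the limit of 0.05. The counts were therefore fragile, and both fell to 0 when the CPM were scaled by library totals, an alternative chosen after seeing the data, when at least 1000 genes per barcode were asked for and when members with a microglial or endothelial UMI were left out. Without the *9630013A20Rik* cells 692 were higher and 1738 lower, among them 1028 of the 1030 called before, each with its sign kept. Library totals moved the median of all genes from −0.01 to 0.45. Under them the list medians were −0.53 for compact myelin, −0.79 for cholesterol genes and −0.59 for nuclear cytochrome c oxidase subunits, while those of the transcription factors (0.39) and of the unfolded protein response (0.13) changed sign.

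Compact myelin had 4 of 24 tested genes lower and 0 higher, and 20 of 24 fitted values were below 0 (median log2 difference −0.99, all genes −0.01). *Opalin* (ENSMUSG00000050121, chr19:41061710-41077113 of GRCm38, minus strand) had 1446, 1670 and 577 CPM and fell by 1.43 on the log2 scale (SE 0.24, adjusted p = 0.0485, edgeR's quasi-likelihood test). *Cd9* had 1630, 1647 and 725 CPM, and *Tmem125*, a membrane protein, 202, 229 and 98.8. *Pllp*, a myelin proteolipid, had 1255, 1289 and 569 CPM. These 4 genes were the called ones, and in each the sham libraries lay close together with 2VO 1 below both. The test favours such genes, since the sham libraries give its only residual spread. *Cnp*, a myelin enzyme, had 7028, 6059 and 2471 CPM and missed the limit (log2 difference −1.40, edgeR adjusted p = 0.0552).

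The markers that name the members did not all move this way. *Ptgds* had 13984, 23588 and 12446 CPM (log2 difference −0.59, SE 0.45, edgeR adjusted p = 0.41). *Il33* had 253, 900 and 451 CPM (−0.35, SE 0.75, edgeR adjusted p = 0.774). The sham libraries differed in both genes by more than sham 1 from 2VO 1, and scaling by library totals turned the *Il33* value to 0.10. Transcription factors of the lineage had 0 of 14 called (median −0.06, with 2 higher and 4 lower at an unadjusted p under 0.05), among them *Sox10* with 498, 487 and 246 CPM and *Nkx6-2* with 666, 683 and 332, which missed the limit, and *Olig2* with 208, 224 and 193.

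Cholesterol genes, whose product makes up much of the myelin membrane, had 23 of 24 fitted values below 0 with a median of −1.24, and 2 of 24 were called lower, a share near the 6.03% of all genes. *Fdps*, which makes farnesyl diphosphate, had 342, 221 and 58.9 CPM (−2.26, SE 0.36), and *Pmvk*, a kinase of the mevalonate path, 160, 109 and 37.5 (−1.84, SE 0.32). *Idi1*, an isomerase of the same path, had 352, 163 and 58.9 CPM and was not called (edgeR adjusted p = 0.0763). In each, sham 1 was above sham 2 and 2VO 1 was lowest. Without sham 1 the list's median was −0.70, and without sham 2 it was −1.45.

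The cholesterol genes also shared a promoter letter pattern. The motif CCAAT, or ATTGG on the other strand, was searched in the 250 bases before the start of each gene in RefSeq's promoters of GRCm38.p6. A gene was counted if any of its listed promoters held the motif. This was so for 16 of the 17 cholesterol genes that matched the table, or 94.1%, and for 37.5% of 27025 genes in all. CCAAT is bound by the factor NF-Y, which works with the sterol-sensing SREBP factors on such promoters, and a match of letters is no proof of a site. To show the pattern, the sites of the 4 matched genes with the smallest p are printed 5′ to 3′ on the strand of the gene, with the motif in capitals.
*Pmvk*, chr3:89454395-89454419, plus strand: ctcaggttggCCAATtcacagcatc
*Ebp*, chrX:8193553-8193577, minus strand: ccctgtactgATTGGttcgtcagat
*Mvk*, chr5:114444245-114444268, plus strand: cagctctctgATTGGcctcaggaa
*Sc5d*, chr9:42264310-42264334, minus strand: ccggctgctgATTGGccggctgcct
*Ebp*, a sterol isomerase, had 155, 120 and 55.1 CPM in members, *Mvk*, the mevalonate kinase, 69.8, 46.7 and 16.6, and *Sc5d*, a sterol desaturase, 210, 145 and 69.8. Of the 4, *Pmvk* was called, and in all 4 the 2VO library lay below both sham libraries.

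Myelin sphingolipid and fatty acid genes had 3 of 20 called lower and 17 fitted below 0 (median −0.75). *Gal3st1*, which adds the sulfate to sulfatide, had 494, 433 and 155 CPM (−1.58, SE 0.21). *Hacd1*, an enzyme that lengthens fatty acids, had 145, 118 and 36.1 CPM (−1.87, SE 0.24). *Fabp5*, a fatty acid carrier outside these lists, was among the genes with the smallest p, at 1368, 1348 and 316 CPM (−2.10, SE 0.23), and its level in endothelial barcodes was 18.0, 22.6 and 27.5 CPM. Energy genes had 3 of 15 lower, the glycolytic *Gapdh* (870, 905 and 380 CPM) and *Pgam1* (269, 235 and 98.3), and *Gamt* (1045, 603 and 178), the last enzyme of creatine synthesis.

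Of the respiratory chain, 2 lists were counted, the nuclear subunits of cytochrome c oxidase and the genes encoded in mitochondria, and their medians had opposite signs. Nuclear subunits of cytochrome c oxidase had 7 of 11 called lower, and all 11 were below 0 (median −1.05). *Cox5a* had 305, 281 and 99.8 CPM, *Cox5b* 651, 681 and 239, and *Cox7c* 1269, 1290 and 523. Mitochondrially encoded genes were above 0 in 13 of 13 (median 0.97), and 1 was called, *mt-Nd6*, at 23.3, 28.3 and 130 CPM (2.33, SE 0.21). *mt-Co3* had 2549, 3069 and 6040 CPM and missed the limit (edgeR adjusted p = 0.0663). In endothelial barcodes the same lists had medians of −0.40 (11 of 11 below 0) and 0.38 (13 of 13 above 0), so that the sign of both was shared by another cell type of these libraries.

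Nuclear long noncoding RNAs had 3 of 9 called higher (median 1.94). The most abundant, *Malat1*, lay the other way at 76696, 56733 and 49088 CPM and was not called (−0.44, SE 0.46, edgeR adjusted p = 0.542). *Gm26917* had 55.6, 67.9 and 494 CPM (3.0, SE 0.20), *Kcnq1ot1*, the RNA of an imprinted locus, 56.4, 34.8 and 175, and *Snhg11* 12.2, 14.9 and 41.3. *Neat1*, the scaffold of paraspeckles, had 52.7, 224 and 1101 CPM and missed the limit (3.0, SE 0.80, edgeR adjusted p = 0.0806). In endothelial barcodes *Neat1* had 139, 137 and 508 CPM and *Gm26917* 86.8, 126 and 284. Both were highest in 2VO 1 in either cell type.

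Called genes differed in length, a feature that the rule did not use. The median exon length was 7602 bases in genes called higher, 2444 in those called lower and 4507.5 in all tested, with gene models found for at least 99.6% of each set. The median span on the genome was 47.7, 10.5 and 24.6 kb in the same order. Genes called lower were thus shorter and those called higher longer than the rest. The lower depth of 2VO 1 moves with this, and its part was not tested.

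Immediate early genes had 19 of 22 fitted values above 0 (median 1.11) and 2 called, *Atf3* (28.0, 37.1 and 101 CPM, 1.64 with SE 0.25) and *Ier3* (4.36, 4.94 and 18.1 CPM). *Fosb* had 46.9, 244 and 658 CPM and was not called (edgeR adjusted p = 0.169), and its sham libraries differed from each other more than 2VO 1 from sham 2 on the log scale. In endothelial barcodes *Atf3* had 477, 1426 and 618 CPM and the list a median of 0.06. Thus 2VO 1 was the highest library for *Atf3* in members and between the sham libraries in endothelial barcodes.

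Among single genes outside these groups, *Per1*, a clock gene that glucocorticoids induce, rose at 23.7, 22.0 and 96.9 CPM (2.08, SE 0.19). *Igf1r*, the receptor of a growth factor that supports OLGs, had 38.0, 45.8 and 145 CPM (1.80, SE 0.20), and the small heat shock protein *Hspb1* 28.3, 35.2 and 85.5. *Lrp1*, a receptor that takes up lipoproteins and myelin debris, had 10.5, 11.6 and 72.2 CPM (2.71, SE 0.21). *Igf1r*, *Hspb1* and *Lrp1* were all above both sham libraries in 2VO 1, which for *Lrp1* was a condition for naming it. In endothelial barcodes *Lrp1* had 23.1, 42.1 and 58.7 CPM and *Per1* 69.7, 49.4 and 101, so both were highest in 2VO 1 there too. *Hspb1* and *Igf1r* are also abundant in endothelial barcodes, at 3720, 3587 and 4433 and at 1047, 770 and 1182 CPM. *Ifi27l2a* fell, at 90.02, 88.9 and 13.8 CPM (−2.70, SE 0.24), against 23.6, 36.5 and 63.9 in endothelial barcodes. *Stmn1*, which binds tubulin, had 3587, 3793 and 1230 CPM, and the actin-binding *Pfn1* 549, 505 and 183, among 4 of 20 cytoskeleton genes called lower (median −0.95). The apoptosis genes *Bax* and *Phlda3* were 2 of 14 called lower, with 179, 160 and 78.9 and 563, 395 and 161 CPM.

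In 4 of the 20 gene lists no gene was called, among them ion channels and gap junctions (0 of 12, median 0.22) and the unfolded protein response (0 of 17, median −0.33, with 1 higher and 4 lower at an unadjusted p under 0.05). The interferon list had 1 of 17 lower and a median of 0.21, which was −0.29 without members that held a microglial or endothelial UMI and 1.15 without the *9630013A20Rik* cells. The reactive list had 1 of 14 lower, *Cd9*, and the antigen genes *H2-D1* (102, 95.3 and 102 CPM) and *B2m* (63.2, 50.8 and 77.4 CPM) were not called. The rule itself removed cells with *C4b* and *Serpina3n*, so that this list bears on the cells that stayed.

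**Figure D4:**
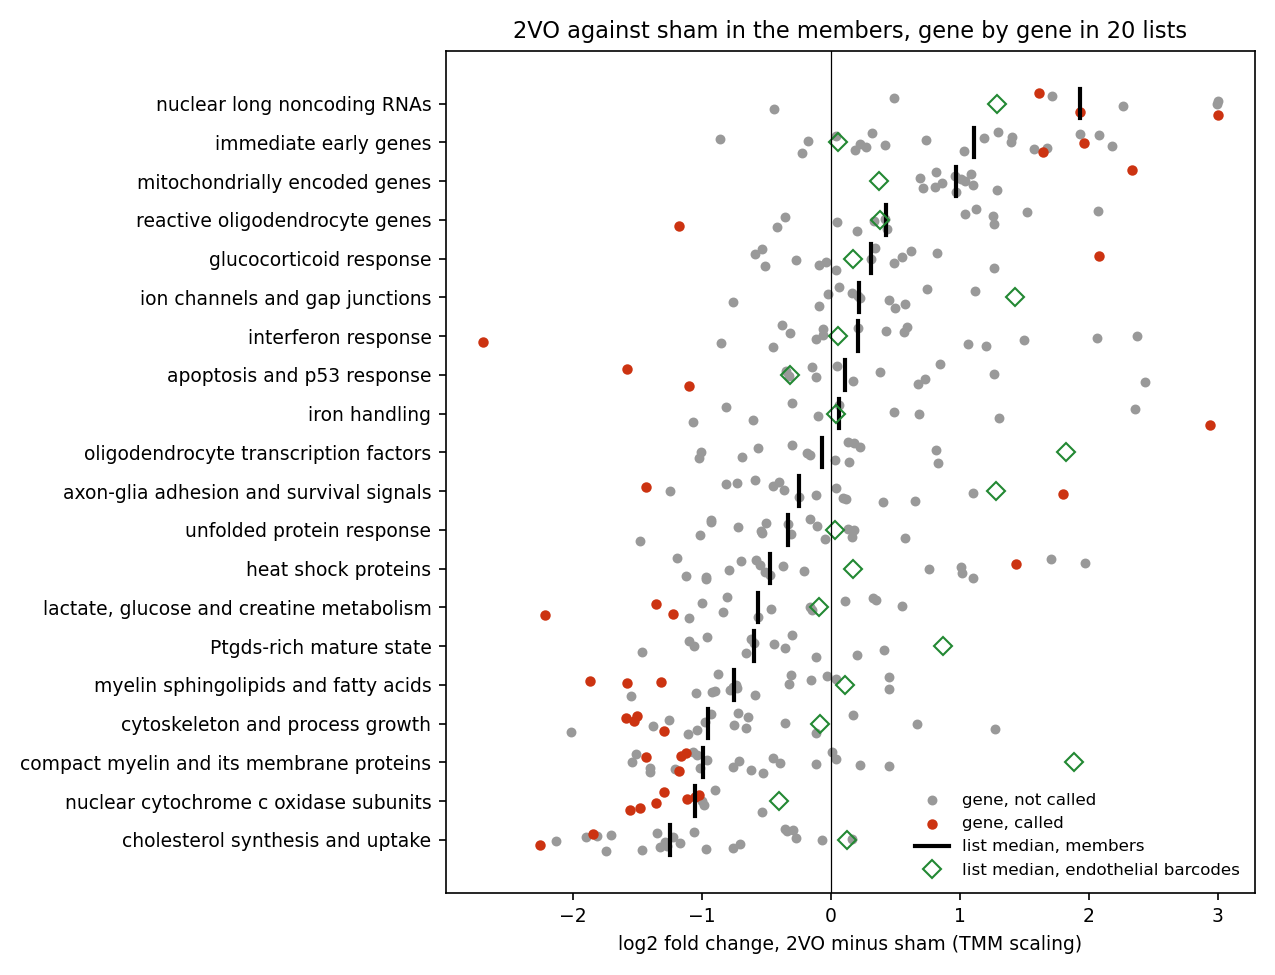
Log2 difference of 2VO 1 from the sham libraries in members (horizontal axis) for each tested gene of 20 lists (vertical axis). Red points are called genes, black bars are the medians of members and green diamonds the medians in endothelial barcodes. Medians run from −1.24 for cholesterol synthesis to 1.94 for nuclear noncoding RNAs, and the endothelial medians of the mitochondrial and cytochrome c oxidase lists lie on the same side as those of members.

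Markers of other cell types moved with the 2VO library. Genes of microglia, the brain's macrophages, were called higher in members in 9 of 9 tested (median 4.52), such as *Cx3cr1* with 2.10, 2.05 and 48.0 CPM and *Tmem119* with 0.526, 0.723 and 22.3. In endothelial barcodes *Cx3cr1* had 3.85, 2.18 and 24.8 CPM. At least 1 UMI of the 12 microglial markers was found in 3.47%, 4.06% and 38.9% of members and in 8.40%, 5.41% and 37.8% of endothelial barcodes, and none of the 12 was at 0 in members. Summed, these markers took 0.31, 0.38 and 7.39 per 10000 UMIs of the members. Thus the share of cells with such UMIs was nearly the same in 2 unrelated cell types of 2VO 1. The 12 markers include *C1qa*, *C1qb* and *C1qc*, which were held under the same limit of 40 per 10000 UMIs in both. The part of that shared limit in the likeness was not tested.

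Markers of OLG precursors were found in 3.74%, 1.64% and 14.6% of members, with 3 of 7 genes called higher, and those of endothelial cells in 2.81%, 5.60% and 28.9%. The endothelial list includes *Cldn5*, *Flt1* and *Ly6c1*, which the rule limits in members. Blood markers were found in 0.20%, 2.22% and 45.8% of members against 0.89%, 7.59% and 45.2% of endothelial barcodes, and choroid markers in 55.4%, 42.4% and 91.2% against 78.7%, 61.6% and 91.1%. Of the 6 blood markers, the T cell gene *Cd3e* was at 0 in members of each library. Members with under 40 UMIs of *Mog*, *Mag* and *Ermn* per 10000 were 2.27%, 2.42% and 18.2% of all. In 2VO 1 these 115 members had a mean of 237 per 10000 for 6 myelin genes against 421 in the other members, and of 12.1 against 1.21 for precursor markers. The split was made on myelin genes of the rule, so these means describe the split and are no separate result. Without the members under 40 in any library, an alternative chosen after seeing the data, 207 genes were higher and 523 lower. The median of compact myelin was then −0.83, of cholesterol genes −1.06 and of immediate early genes 1.13. The part of these other cell types and of free RNA in the calls was not tested.

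**Figure D5:**
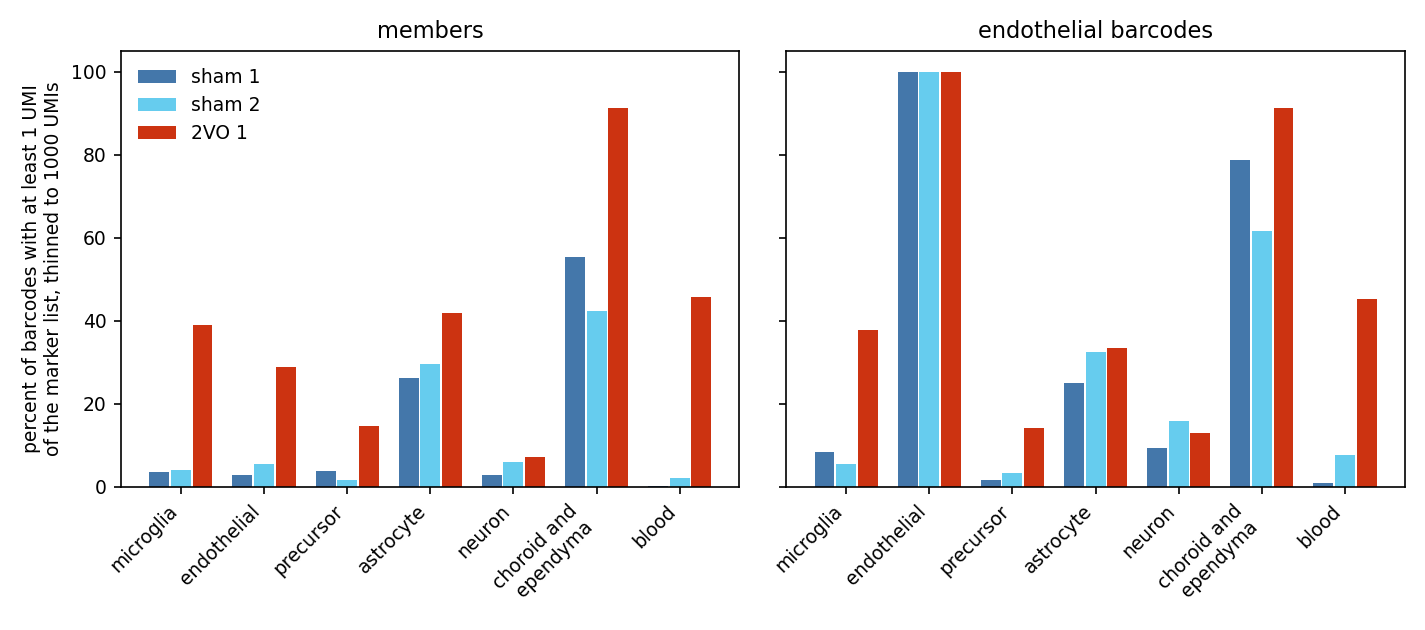
Percent of cells with at least 1 UMI of each list of markers (vertical axis) after thinning to 1000 UMIs, in members and endothelial barcodes of sham 1, sham 2 and 2VO 1. Bars show 1 library each with no error bars. The microglial and endothelial lists include genes that the rule limits in members. Microglial markers reached 38.9% of members and 37.8% of endothelial barcodes in 2VO 1, against at most 8.40% in the sham libraries.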

How the data were processed

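Hippocampal cells of 2 sham mice and 1 2VO mouse were analysed from the deposited matrices, in which the authors give raw UMI counts for each gene in each barcode. Their methods name Cell Ranger with GRCm38 (mm10), and the submitters' notes also name Seurat 3.2.2. Ambient RNA removal is not given in the sources used here. The members, the 20 gene lists and the 12 marker lists were chosen with earlier results of these data known. Raw counts were summed per library and population and tested with edgeR 4.0.16 in R 4.3.3 (TMM, default filter on low counts, Benjamini-Hochberg over all genes tested), with the library as a block between populations, which come from the same mice. Genes of the rule entered the fits but were not counted. DESeq2 1.42.0 was an alternative, as were other gene minimums, thinning, doublets left out by Scrublet (scanpy 1.11.5, score 0.25, set after seeing the data) and each library left out. Named genes were those the study names for its OLGs, the markers, called genes of smallest p, and the top 2 of each list. In 2VO against sham, 12 called genes were taken in each direction, with at least 50 counts and 2VO 1 beyond both sham libraries. Between populations, 10 were taken in each direction, and the direction had to be the same in all 3 libraries. *Gamt*, *Pllp*, *Kcnq1ot1*, *Cox7c*, *Fosb*, *Idi1*, *Fos* and other list members beside them were added after their values had been seen. Doublets stayed in the main values. P-values measure only the spread between these libraries, which in the interaction fits was taken from all genes together and not from each gene. The method was tested on simulated counts. These varied less between libraries than the counts of 2VO against sham, so they do not show how it performs there. Shares carry exact 95% intervals.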

Additional observations from a re-analysis of the deposited data

Results flagged for a closer look

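Whether the 2VO difference itself differed between members and the other OLGs was tested as an interaction with edgeR's quasi-likelihood test, on 1 residual degree of freedom and with 1 2VO library. The spread of each gene was taken from all genes together, so an SE here is not that gene's own spread between libraries. Genes named here were chosen after their values had been seen. Against *Klk6* OLGs 43 genes were called and 645 had an unadjusted p under 0.05.

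Scaled in the fit of both populations, *Ptgds* was 13077, 22517 and 14856 CPM in members and 1328, 696 and 6148 in *Klk6* OLGs, so that the 2VO library was highest in the *Klk6* OLGs and between the sham libraries in members (difference of the log2 differences −2.78, SE 0.16). Scaled within the members alone, 2VO 1 had 12446 CPM, below both sham libraries at 13984 and 23588. The same difference was −1.95 for *Il33*, −1.76 for *Apoe*, −1.59 for *Cd9* and −1.27 for *Opalin*, and it was 1.32 for *S100b* and 1.84 for *Hopx*. Genes that were higher in members than in *Klk6* OLGs thus had the negative values, and those higher in *Klk6* OLGs the positive ones. Of the *Klk6* OLGs in 2VO 1, 20 of 44 held a single *Klk6* UMI, against 0 of 35 in sham 1 and 4 of 28 in sham 2, and the part of this in the differences was not tested. DESeq2 called 0 genes higher and 1 lower, *Apoe*.

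Against *C4b* or *Serpina3n* OLGs 30 genes were called. The difference was 2.89 for the nonclassical class I gene *H2-T23*, 2.49 for *Bst2* and 0.91 for *B2m*, and −0.74 for *Apoe*. *H2-T23* stood at 14.5, 9.09 and 18.8 CPM in members and at 59.4, 219 and 23.4 in these OLGs, which were lower in 2VO 1 than in either sham library. Sham cells had to hold the same 2 *C4b* or *Serpina3n* UMIs at a greater depth, and DESeq2 called 0 genes in either direction, with 25 at an unadjusted p under 0.05. Vascular or blood markers were 7 of the 43 genes called against *Klk6* OLGs and 5 of the 30 here, and all were on the negative side.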

How the results depend on the processing

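No paired analysis was possible because 2VO 2 was not analysed here and the groups share 1 replicate number only. In 2VO against sham (248 higher, 782 lower), the counts were 409 higher with 200 genes per barcode, 831 and 1811 with no *C4b* and *Serpina3n* limit, 807 and 1323 without doublets, 1349 and 2769 unfiltered for low counts, 807 higher after thinning, 692 and 1738 without *9630013A20Rik* cells, and 0 and 0 with 1000 genes per barcode (3983 genes at an unadjusted p under 0.05), without members holding a microglial or endothelial UMI (3426) and with library totals (4650). DESeq2 gave 260 and 894. Library totals moved the median of all genes to 0.45 and turned *Il33* to 0.10. Leaving out a sham library leaves no residual degrees of freedom, so that it gives values and no calls. Against *Klk6* OLGs (230 higher, 240 lower), the counts were 103 and 136 with DESeq2, 23 and 24 after thinning, 1 and 3 without the library block, and 68 to 451 higher and 65 to 329 lower with a library left out, where the lowest counts came without sham 1 and the highest without 2VO 1. Against *C4b* or *Serpina3n* OLGs (57 higher, 44 lower), they were 16 and 18 with DESeq2, 3 and 6 after thinning, 0 and 0 without the block (76 genes at an unadjusted p under 0.05), 107 higher with no filter, 13 higher without *9630013A20Rik* cells, and 24 to 90 higher with a library left out, lowest without sham 1. The difference of the 2VO response from *Klk6* OLGs gave 0 and 1 with DESeq2, 4 higher with no filter, and 0 and 7 after thinning. That from *C4b* or *Serpina3n* OLGs gave 0 and 0 with DESeq2, 5 higher with RLE size factors, 4 higher with no filter, and 0 and 1 after thinning (409 at an unadjusted p under 0.05). Members were 31.6%, 23.2% and 14.8% of kept barcodes with 1000 genes, 26.9% in sham 1 and 17.0% in sham 2 with 200 genes, and 30.9%, 21.2% and 22.8% with no *C4b* limit, where 2VO 1 was no longer below sham 2. The causes were not tested. In 2VO against sham, named genes kept direction and side of the threshold in 565 of the values computed, gained the call in 67 and lost it in 137, while 13 without a test moved by more than the spread and 1 reversed. Depth limits these results most in 2VO 1, where the median member held 2147 UMIs.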
